A study of Homo sapiens with 16 samples.

Results

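The doxycycline response shared by 2 derivatives of MDA-MB-231, a human triple-negative breast cancer cell line, was measured by sequencing of polyadenylated RNA. One derivative carries a scrambled short hairpin RNA under doxycycline control (shScramble) and the other a hairpin against AKAP2 (shAKAP2), a scaffold protein that binds protein kinase A. Each line has 4 libraries from cells without doxycycline (no dox) and 4 from treated cells, and the 8 libraries with the drug were compared with the 8 without it. Line was a covariate in the fit, and genes whose change had the same sign in both lines were kept. Of 57500 genes in the table, 15566 had enough counts to be tested and 7645 of these, 49.1%, had the same sign of change in both lines (3830 higher, 3815 lower). The other 7921 did not, so the same sign was no more frequent than its absence. Among the 7645, 1009 (6.48% of genes tested) passed the test of doxycycline over both lines together, and these are called the common response below. The name refers to this rule only, since 941 of them were called in shAKAP2 on its own test and 61 in shScramble.

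All 16 libraries come from cells with a hairpin construct, and no cells without one were treated with the drug. The action of doxycycline itself and that of inducing any hairpin therefore cannot be told apart. The sources used here give neither dose, time of treatment and hairpin sequences nor whether each line is 1 clone or a pool. The labels call the libraries biological replicates without saying whether cultures were separate, so p-values reflect only how much these samples vary, which may be technical.

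Doxycycline is a tetracycline antibiotic used as the switch for inducible promoters, because it controls the binding of the tetracycline repressor or transactivator to DNA. Tetracyclines also bind the ribosomes of bacteria and of mitochondria, where they slow the synthesis of the proteins encoded by mitochondrial DNA. They chelate metal ions and inhibit matrix metalloproteinases, and mitochondrial stress is known to act on the nucleus through the integrated stress response and its transcription factor ATF4. A short hairpin is processed into a small RNA that guides Argonaute proteins to messenger RNAs, often through a match of a few bases in their 3' untranslated region (3' UTR).

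Total counts per library ranged from 24482997 to 37472525. The targeted gene, AKAP2 (ENSG00000241978), had 55, 26, 29 and 34 counts in shScramble without doxycycline and 22, 47, 56 and 87 with it. In shAKAP2 it had 42, 36, 37 and 53 counts without doxycycline and 3, 0, 1 and 0 with it, which matches the labels of that line. Its log2 changes of 0.58 in shScramble and -5.06 in shAKAP2 differ in sign, so AKAP2 is not a member of the common response. Both shScramble replicate 1 libraries, without and with the drug, lay apart from the other libraries of their groups. Their median distances were 0.422 and 0.43 (root mean square difference in log2 level), against 0.208 to 0.244 for the other 14 libraries. Summed over 14 blood cell markers, the level was 243.3 to 614.1 CPM (counts scaled to a common library size) in shScramble without and 349.6 to 584.7 with doxycycline. The corresponding ranges in shAKAP2 were 170.1 to 192.9 and 89.4 to 104.7 CPM. For 10 fibroblast markers the ranges were 24.97 to 46.7, 46.7 to 70.5, 21.7 to 33.6 and 19.6 to 21.8 CPM in the same order. CD74 and LAPTM5 made up most of the blood cell sum. In shScramble 6 of 11 tested blood cell markers and 1 of 7 fibroblast markers rose, against 87 of all 15566 genes tested. In shAKAP2 3 of each list fell, against 2373 of all 15566 genes. With such opposite movements 0 of either list were in the common response, and the part of such transcripts in the results was not tested. CD3E of the blood cell list was at 0 in every shScramble library and in every uninduced shAKAP2 library. Among 9 luminal breast markers, ELF5 was at 0 in every library, but the list summed to 306.5 to 525 CPM over all libraries. The epithelial list summed to 1178 to 1908 CPM. KRT19, which is in both lists, averaged 169.9 to 215.8 CPM per group.

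The common response held 485 genes that rose, 3.12% of all genes tested, and 524 that fell, 3.37% of them (edgeR's quasi-likelihood test, at 0.05 after Benjamini-Hochberg adjustment across the whole table). Its changes were small: 93 rose and 116 fell by at least 1.5-fold, and 17 and 28 by at least 2-fold. Estimates were mostly larger in shAKAP2. Of the 1009 genes, 914 changed more in shAKAP2 and 95 more in shScramble, and the median absolute log2 fold change was 0.57 in shAKAP2 against 0.17 in shScramble. On its own test, 941 of them were called in shAKAP2 and 61 in shScramble, and 51 in neither, where 28.3% and 1.08% of all genes tested were called. The number changed when libraries were left out. Leaving out 1 shAKAP2 library, whichever it was, lowered the counts to between 218 and 247 genes that rose and between 196 and 216 that fell. Leaving out 1 shScramble library gave between 447 and 769 that rose and between 487 and 833 that fell. Without both shScramble replicate 1 libraries the counts were 1034 and 1027.

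The sign rule has a soft edge, since many effects in shScramble lie near 0. Just inside it stood MAP4K4, with a log2 fold change of -0.00082 in shScramble and -0.88 in shAKAP2, and KLHL18, with -0.00093 and -1.09. Just outside stood ACOX3, with 1.9e-05 and -0.90, and VIPR1, with 0.00015 and -1.27. Another 52 genes passed the test of both lines together but had opposite signs, 9 of them higher and 43 lower on average.

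A stricter group is formed by the genes called in each line on its own and in the same direction, from contrasts that share no library. There were 21 such genes that rose (0.135% of those tested) and 23 that fell (0.148%), 0.283% together, and all 44 also passed the test of both lines together. In 41 of the 44 the libraries with and without doxycycline did not overlap in either line, as in 0.527% (higher) and 0.52% (lower) of all genes tested. The 44 were chosen by tests in these same libraries. That choice favours both the lack of overlap and the pass over both lines together, so neither adds support. The genes that rose had log2 fold changes of 0.33 to 0.98 (median 0.55), and those that fell of -0.28 to -2.87 (median -0.55). All 44 were called again without both shScramble replicate 1 libraries, when the group numbered 134 and 92. When single libraries were left out, the counts ranged from 10 to 57 that rose and from 17 to 42 that fell. Without untreated shScramble replicate 2, 10 of the 21 and 18 of the 23 stayed in the group. The loss of a call is thus not limited to RASSF5 and PRSS12, named below for it.

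**Figure D1:**
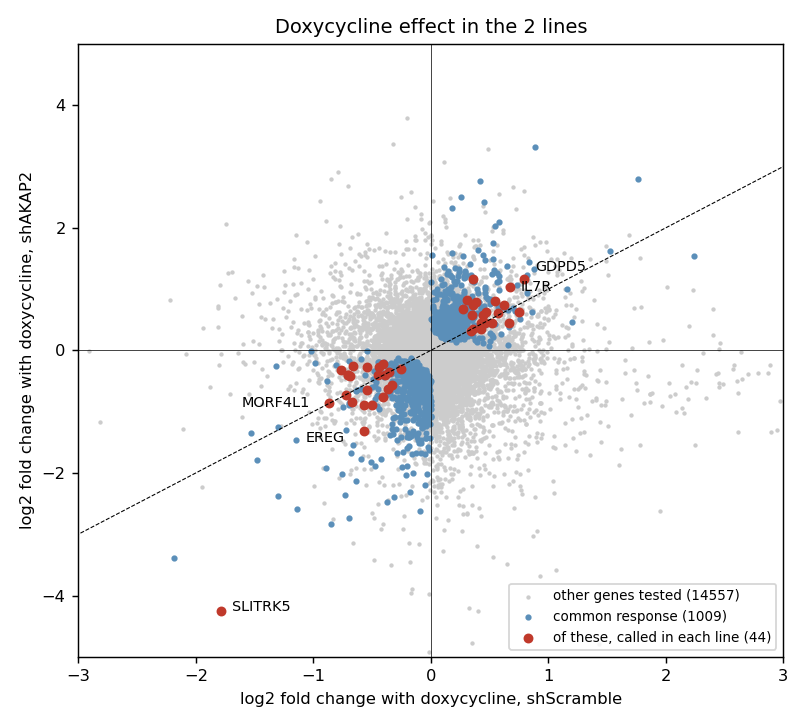
Log2 fold change with doxycycline in shScramble (horizontal) against shAKAP2 (vertical), 1 point per gene tested, with a dashed line of equal change; 19 genes lie outside the axes. The 1009 genes of the common response (blue) mostly spread along the shAKAP2 axis. The 44 called in each line (red) lie away from both zero lines, as their selection entails.

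The smallest p in the common response belonged to the fall of MORF4L1 (ENSG00000185787; GRCh38 chromosome 15, 78810487 to 78898133, plus strand), which encodes a chromodomain protein of chromatin-modifying complexes. In shScramble it stood at 395.7, 389.9, 389.8 and 410.1 CPM without doxycycline and at 230.7, 224.0, 205.4 and 207.0 CPM with it. In shAKAP2 the levels were 376.2, 378.9, 391.2 and 388.7 CPM, then 195.6, 216.7, 221.1 and 212.3 CPM with the drug. Every treated library of either line lay below every untreated library of both. The level fell to 54.9% of that without the drug, a log2 change of -0.87 (SE 0.044, adjusted p = 2.71e-10 by edgeR). Its effects were -0.87 (SE 0.058) in shScramble and -0.86 (SE 0.058) in shAKAP2, with a difference of 0.011 (SE 0.081, adjusted p = 0.948). The processed pseudogene MORF4L1P1 fell alongside it, by 0.72 on the log2 scale in each line. Reads can be shared between these near-identical copies, and MORF4L1 also overlaps ADAMTS7 on the other strand, so both counts are uncertain.

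Several receptors, ligands and signalling genes rose. Genes taken by the rule given under processing, among them IL7R, CCBE1, GDPD5, SLITRK5 and CREB3L2, were required not to overlap in either line. The lack of overlap stated for them therefore describes that choice. IL7R, the alpha chain of the interleukin-7 receptor, was at 21.4, 22.9, 24.6 and 20.9 CPM in untreated shScramble and at 34.4, 33.7, 41.4 and 33.6 CPM in treated shScramble. In shAKAP2 it was at 13.3, 15.1, 17.3 and 11.1 CPM before and 34.0, 27.8, 29.02 and 25.2 CPM after treatment. The groups did not overlap in either line, and IL7R rose 1.80-fold over both (log2 0.85, SE 0.097, adjusted p = 7.03e-05 by edgeR). CCBE1, a secreted protein that helps to activate the lymphatic growth factor VEGF-C, rose nearly equally, by log2 0.57 (SE 0.080) in shScramble and 0.62 (SE 0.082) in shAKAP2. Its levels were 27.1, 28.6, 24.6 and 27.8 CPM without and 37.8, 39.7, 43.6 and 39.97 CPM with doxycycline in shScramble. The shAKAP2 levels of CCBE1 were lower throughout, at 16.8, 17.8, 17.7 and 19.9 CPM without and 27.3, 27.2, 26.2 and 30.0 CPM with the drug. CCBE1 rose in both lines without overlap, and treated shAKAP2 cells reached about the level of untreated shScramble cells.

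GDPD5, a glycerophosphodiester phosphodiesterase, showed the highest fold change of the 21 genes that rose in each line. Its levels were 5.29, 4.98, 6.42 and 6.04 CPM in untreated and 6.74, 9.38, 11.2 and 12 CPM in treated shScramble, and 2.85, 3.65, 3.27 and 2.68 CPM then 6.999, 7.41, 7.44 and 6.11 CPM in shAKAP2. That is a 1.97-fold rise (log2 0.98, SE 0.128, adjusted p = 0.000213 by edgeR), with no overlap in either line. HIPK3, a homeodomain-interacting protein kinase, rose by log2 0.47 (SE 0.095) in shScramble and 0.63 (SE 0.095) in shAKAP2. GPSM3, a modulator of G protein signalling, rose by log2 0.45 (SE 0.088) and 0.58 (SE 0.089). RASSF5, which binds active Ras and Rap proteins, rose by log2 0.52 (SE 0.123) and 0.45 (SE 0.123), and it lost its call in shScramble when single libraries of that line were left out. Among the other genes taken by the rule, PPM1H, ACOXL, PRKCZ, SFTA1P and PDCD1LG2 rose over both lines together by log2 0.64 to 0.88. They were called in shAKAP2 but not in shScramble, where their adjusted p ranged from 0.0857 for PRKCZ to 0.21 for PDCD1LG2. Without both shScramble replicate 1 libraries, PPM1H (adjusted p = 0.0146) and PDCD1LG2 (0.0195) were called in shScramble too (edgeR). PDCD1LG2 encodes PD-L2, a ligand of the immune checkpoint receptor PD-1, and PRKCZ an atypical protein kinase C.

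**Figure D2:**
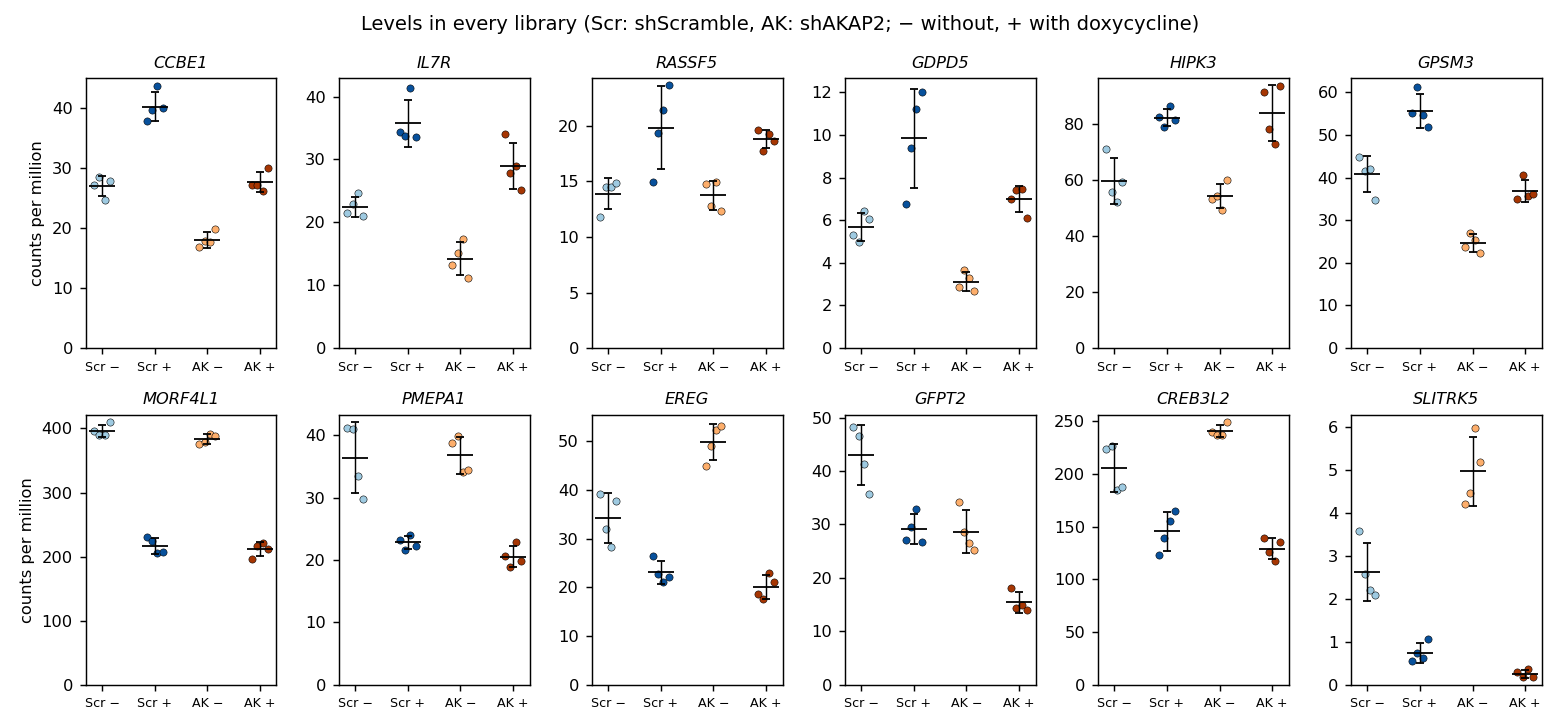
Levels of 12 genes in every library, in CPM, for shScramble (blue) and shAKAP2 (orange) without (light) and with (dark) doxycycline; the horizontal mark and bar give mean and SD over 4 libraries. The upper 6 genes rose and the lower 6 fell in each line. In none of the 12 did treated and untreated libraries of a line overlap, which the rule that chose them required.

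Genes of the extracellular matrix were among those that rose in each line. LAMC1, the gamma chain of most laminins, rose by log2 0.42 (SE 0.0997) in shScramble and 0.45 (SE 0.0996) in shAKAP2. One treated shScramble library (replicate 1, 264.0 CPM of LAMC1) lay within the untreated range of 225.8 to 269.6 CPM. COL8A1, a short-chain collagen, rose by log2 0.43 (SE 0.070) and 0.36 (SE 0.070), without overlap in either line.

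In the list of 40 tested extracellular matrix and integrin genes, 7 rose (among them AGRN, COL4A1, COL6A1, COL6A2, COL8A1 and LAMC1), 1 fell (COL13A1) and 32 did not belong to the common response. Those that rose and fell made up 17.5% and 2.5% of the list, against 3.12% and 3.37% of all genes tested. The list's median log2 fold change was 0.057, against -0.00025 over all genes tested. Its medians were 0.24 in shScramble and -0.068 in shAKAP2, and 31 of the 40 genes had a positive change in shScramble against 18 in shAKAP2. Without both shScramble replicate 1 libraries, 11 of the 40 rose and 1 fell. Of these, 6 (AGRN, COL4A1, COL6A2, COL8A1 and LAMC1 among them) were then called in each line. Over all 15759 genes tested in that setting 1034 rose and 1027 fell, and 134 and 92 did so in each line. COL4A1, a basement membrane collagen, rose mainly in shAKAP2 (log2 1.09, against 0.21 in shScramble). COL6A1 and COL6A2, both chains of collagen VI, had larger changes in shScramble (log2 0.40 and 0.52) than in shAKAP2 (0.13 and 0.25), a difference that was not called for either (adjusted p = 0.189 and 0.421 by edgeR). Fibroblast markers had median log2 changes of 0.84 in shScramble and -1.09 in shAKAP2, and their part in these values was not tested.

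Further genes that rose in each line were chosen here after their values were seen. CYR61 and ANKRD1, both widely used as targets of the transcriptional coactivators YAP and TAZ, were abundant. CYR61 went from 661.2 to 735.0 CPM in untreated shScramble libraries to 793.4 to 980.6 CPM in treated ones, and from 627.8 to 724.2 CPM to 1065 to 1162 CPM in shAKAP2. ANKRD1 went from 416.3 to 473.4 CPM to 519.0 to 663.6 CPM and from 197.3 to 233.9 CPM to 362.4 to 385.9 CPM. The ranges without and with the drug did not meet in any of these 4 cases. DKK1, a secreted Wnt antagonist, rose by log2 0.36 (SE 0.084) in shScramble and 1.17 (SE 0.085) in shAKAP2. F3, which encodes tissue factor, the starter of blood clotting, rose equally, by log2 0.36 and 0.34 (SE 0.069 each). LGMN, a lysosomal cysteine protease, rose by log2 0.34 and 0.32. FSTL1, DYSF, PPME1, DDX60L, TMEM245 and the neighbouring noncoding genes AC245041.1 and AC245041.2, which overlap each other, also rose in each line. PPME1 removes the methyl group from protein phosphatase 2A, and DYSF (dysferlin) serves membrane repair.

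SLITRK5, a transmembrane protein known for its role at neuronal synapses, fell most. Its levels were 3.57, 2.58, 2.21 and 2.09 CPM in untreated and 0.546, 0.747, 0.626 and 1.07 CPM in treated shScramble. In shAKAP2 they were 4.21, 4.46, 5.97 and 5.19 CPM before and 0.288, 0.183, 0.376 and 0.183 CPM after treatment. No library overlapped, and the fall was deeper in shAKAP2 (log2 -4.25, SE 0.310) than in shScramble (-1.79, SE 0.268), with a difference of -2.46 (SE 0.412, adjusted p = 0.000248 by edgeR). EREG, which encodes the EGF receptor ligand epiregulin, behaved alike at a higher level. It stood at 39.2, 32.0, 28.2 and 37.8 CPM then 26.4, 22.7, 21.2 and 22.1 CPM in shScramble, and at 44.9, 49.1, 52.3 and 53.2 CPM then 18.7, 17.6, 22.9 and 21.2 CPM in shAKAP2. The untreated lines did not overlap in EREG, and under the drug their ranges did. Its log2 changes were -0.57 (SE 0.110) and -1.31 (SE 0.111), and they differed between the lines (adjusted p = 0.00206 by edgeR).

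PMEPA1, a feedback inhibitor of TGF-beta signalling, stood at 41.2, 41.0, 33.5 and 29.8 CPM in untreated and 23.2, 21.7, 24.1 and 22.3 CPM in treated shScramble. In shAKAP2 it went from 38.8, 39.9, 34.1 and 34.4 CPM to 20.6, 18.9, 22.8 and 19.9 CPM. The levels were alike in the lines in both conditions and fell by 0.76 on the log2 scale (SE 0.076, adjusted p = 1.88e-05 by edgeR). PMEPA1 overlaps NKILA on the other strand, and the sources used here do not say whether counting used strand. CREB3L2, a transcription factor held at the endoplasmic reticulum, was at 223.9, 226.2, 185.0 and 187.6 CPM then 122.9, 139.6, 155.6 and 164.7 CPM in shScramble. Its shAKAP2 levels were 240.2, 236.7, 236.6 and 249.2 CPM then 138.8, 125.8, 117.0 and 135.1 CPM. The groups were apart in both lines, with log2 changes of -0.50 (SE 0.088) and -0.90 (SE 0.088). GFPT2, an enzyme of the hexosamine pathway, fell by 0.57 (SE 0.114) and 0.90 (SE 0.118) on the log2 scale. PRSS12, a secreted serine protease, fell by 0.54 (SE 0.128) and 0.64 (SE 0.127) and, like RASSF5, lost its call in shScramble when single libraries were left out. FOXP4-AS1, SNHG26, HES2 and STEAP1 fell over both lines together (log2 -0.52 to -1.15) and were called in shAKAP2 but not in shScramble, although STEAP1 was called there without both replicate 1 libraries (adjusted p = 0.0238 by edgeR). HES2, a Hairy/E(spl) transcription factor, changed by -0.48 in shScramble and -1.88 in shAKAP2, and the difference passed the test (adjusted p = 0.0101 by edgeR).

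Further genes that fell in each line are named after their values were seen. VEGFA, the main angiogenic growth factor, fell from 168.7 to 180.6 CPM to 131.0 to 145.3 CPM in shScramble and from 115.7 to 126.8 CPM to 77.8 to 82.6 CPM in shAKAP2. The ranges were well apart, with log2 changes of -0.33 (SE 0.057) and -0.57 (SE 0.058). F2RL1, the protease-activated receptor PAR2, fell by 0.36 and 0.63 on the log2 scale, and CPA4, a secreted carboxypeptidase, by 0.41 and 0.76. SET, an inhibitor of protein phosphatase 2A and a histone chaperone, fell by 0.45 and 0.40, with the reservation that processed copies of SET can share its reads. MAP2K7, a kinase that activates JNK, fell by 0.44 and 0.27, and ANKRD52, a regulatory subunit of protein phosphatase 6, by 0.68 and 0.41. Most of the others, among them AKIRIN1, KATNAL1, UBAC1, NUDT19, TNRC18 and USF2, had larger estimates in shScramble, whereas CWC27, ALDH1B1 and LSM14A changed about equally. Of those with larger estimates in shScramble, the difference between lines was called for AKIRIN1 and KATNAL1 only.

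**Figure D3:**
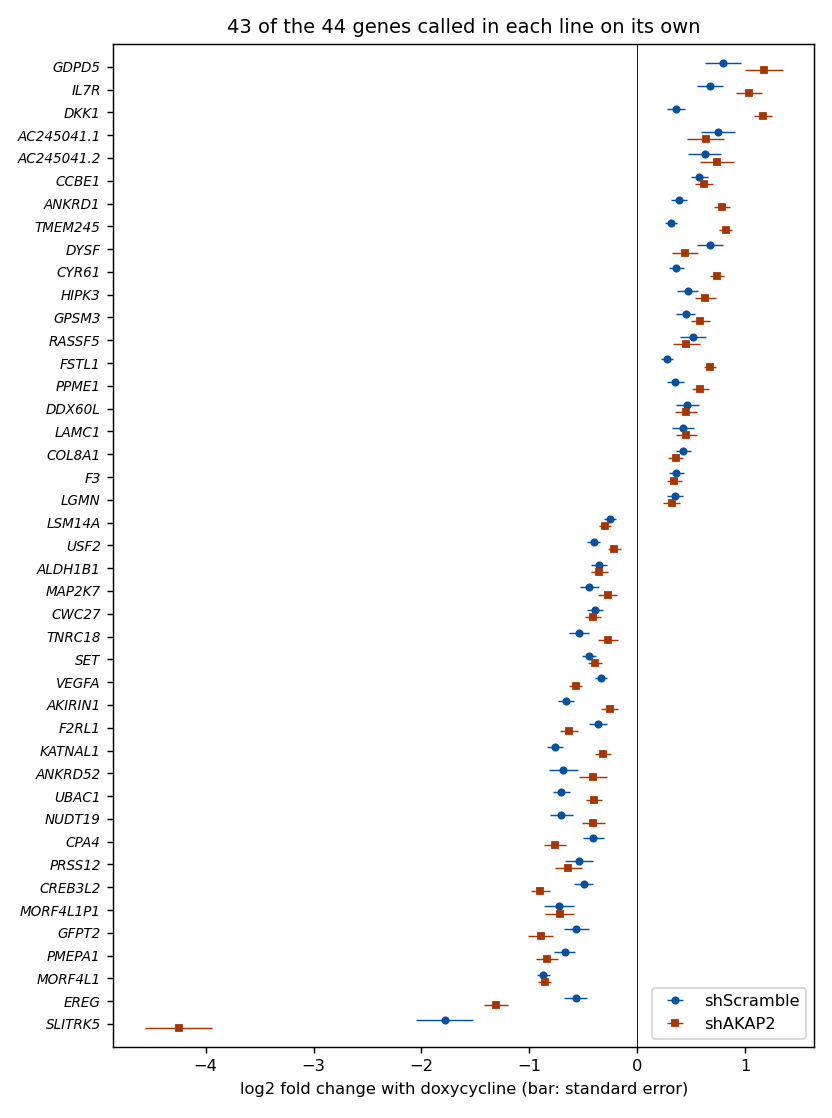
Log2 fold change with doxycycline (horizontal, bars give the standard error) of 43 of the 44 genes called in each line, for shScramble (blue circles) and shAKAP2 (brown squares), ordered by the change over both lines. MORF4L1, CCBE1, F3 and CWC27 have nearly coinciding points, SLITRK5, EREG and DKK1 are far stronger in shAKAP2, and KATNAL1 and AKIRIN1 are stronger in shScramble.

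Whether the lines differed in the size of the doxycycline effect was asked with the interaction term. In the common response 482 genes passed that test, 47.8% of the 1009, against 18% of all genes tested, and 471 of the 482 changed more in shAKAP2. Membership itself leans on the shAKAP2 values, so the 47.8% is a description. Among the 44 genes called in each line, 11 passed. DKK1, ANKRD1, TMEM245, CYR61 and FSTL1 rose more in shAKAP2, and SLITRK5, EREG, CREB3L2 and VEGFA fell more there. KATNAL1 and AKIRIN1 fell more in shScramble, by log2 differences of 0.44 (SE 0.108, adjusted p = 0.0067) and 0.40 (SE 0.106, adjusted p = 0.0112 by edgeR). For KATNAL1, a katanin-like microtubule severing protein, the levels were 76.4, 81.9, 70.2 and 77.1 CPM then 39.1, 46.0, 48.8 and 46.4 CPM in shScramble. They were 66.0, 71.0, 67.9 and 73.7 CPM then 60.5, 53.7, 52.8 and 56.4 CPM in shAKAP2, so the groups were apart in both lines. In the whole common response 527 genes did not pass, and the other 33 of the 44 did not either, which does not show that their effects were equal.

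Gene lists for the known actions of doxycycline are read against the background of all genes tested, of which 3.12% rose and 3.37% fell in common. For the integrated stress response, 4 of 39 tested genes rose (ATF3, CTH, JDP2 and SESN2) and 1 fell (DDIT3), which is 10.3% and 2.56%, with a median log2 fold change of 0.075. ATF3, a stress-induced transcription factor, changed by log2 1.24 in shAKAP2 and 0.16 in shScramble. DDIT3, which encodes CHOP, fell by 0.34 over both lines, although it is usually induced in this response, and its locus overlaps MARS on the other strand. Of 13 mitochondrially encoded transcripts none passed in either direction, with a median of -0.28 (-0.058 in shScramble and -0.48 in shAKAP2). The share of counts from these transcripts was 2.41% to 3.62% without and 2.20% to 3.02% with doxycycline in shScramble, and 1.86% to 2.38% and 1.02% to 2.04% in shAKAP2. Of 77 mitochondrial ribosomal protein genes 0 rose and 6 fell (7.79%), led in size by MRPS33, at log2 -2.19 in shAKAP2 and -0.049 in shScramble. In shAKAP2 on its own, however, 16 of the 77 were called higher and 11 lower, against 2032 and 2373 of all 15566 genes tested. In shScramble 0 of the 77 were called. The median log2 changes of these 77 genes were -0.013 over both lines, -0.086 in shScramble and 0.041 in shAKAP2. Among 50 nuclear-encoded respiratory chain genes 4 rose (NDUFA1, NDUFA4, NDUFB8 and NDUFC2) (8%) and 1 fell (NDUFA6, 2%). Of 14 mitochondrial chaperones and proteases 3 fell (DNAJA3, HTRA2 and PMPCB; 21.4%), and 2 of 18 genes of mitochondrial genome expression fell (MTIF2 and POLG; 11.1%). With all libraries 0 genes of these 6 lists were called in each line on its own. Without both shScramble replicate 1 libraries EPRS rose and MRPL49 and HTRA2 fell in each line, 12 mitochondrial ribosomal protein genes and 4 genes of mitochondrial genome expression fell in common, and 7 stress response genes rose and 2 fell. Over all genes 1034 rose and 1027 fell in that setting.

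Lists of metal and iron handling, the lysosome and other stress programmes followed. In the metal and iron list 4 of 17 rose (23.5%) and 0 fell, namely the ferritin chains FTH1 and FTL and the metallothioneins MT1E and MT2A. Their log2 changes were 0.61 to 1.17 in shAKAP2 and 0.084 to 0.17 in shScramble, and counts of these families are uncertain because of near-identical copies. For lysosome and autophagy 4 of 25 rose (ATP6V1A, LAMP1, MAP1LC3B and SQSTM1; 16%) and 0 fell. Without both shScramble replicate 1 libraries 8 of the 25 rose, and CTSA, LAMP1 and SQSTM1 were among the 4 then called in each line. In the unfolded protein response 2 of 22 rose (ATF6 and HYOU1) and 2 fell (EDEM1 and SEC24D), and without those libraries ATF6, HYOU1 and the chaperone gene HSPA5 were called in each line. Of 15 tested genes of matrix metalloproteinases and their TIMP inhibitors, MMP19 and TIMP2 rose (13.3%) and 0 fell. The interferon list had 2 of 43 higher (GBP1 and MX1), the glycolysis list 2 of 24 (SLC16A1 and SLC2A3), the p53 list 2 of 23 (FAS and TP53I3) and the histone list 2 of 11 (HIST1H2AC and HIST1H2BD; 18.2%), and 0 fell in each of these. NFKB2 rose and IER3 fell among 24 NF-kB response genes. In the cholesterol list EBP alone of 25 passed and fell, but in shAKAP2 on its own 15 were called higher and 1 lower. The list's median log2 changes were 0.57 in shAKAP2 and -0.077 in shScramble. RPS7 alone of 47 cytosolic ribosomal protein genes passed and fell, but in shAKAP2 on its own 22 were called higher and 1 lower. Medians of this list were 0.21 in shAKAP2 and -0.098 in shScramble. Of all genes tested 28.3% were called in shAKAP2, and in shScramble 0 of either list were called. TES rose and ARHGEF6 and CRK fell among 44 focal adhesion genes. For the small RNA machinery, AGO4 rose and AGO1 and DGCR8 fell of 15. Of 40 DNA replication and mitosis genes 0 passed with all libraries, but 3 rose and 7 fell without both shScramble replicate 1 libraries. Without those libraries EDEM1, AGO1, IER3 and CRK had opposite signs in the lines. In that setting GBP1, IFITM3, MX1, SLC2A3 and TIMP2 rose and EBP and RPS7 fell in each line. In common, 8 metal and iron genes and 5 interferon genes then rose and 0 fell, and 6 cholesterol genes rose and 1 fell.

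**Figure D4:**
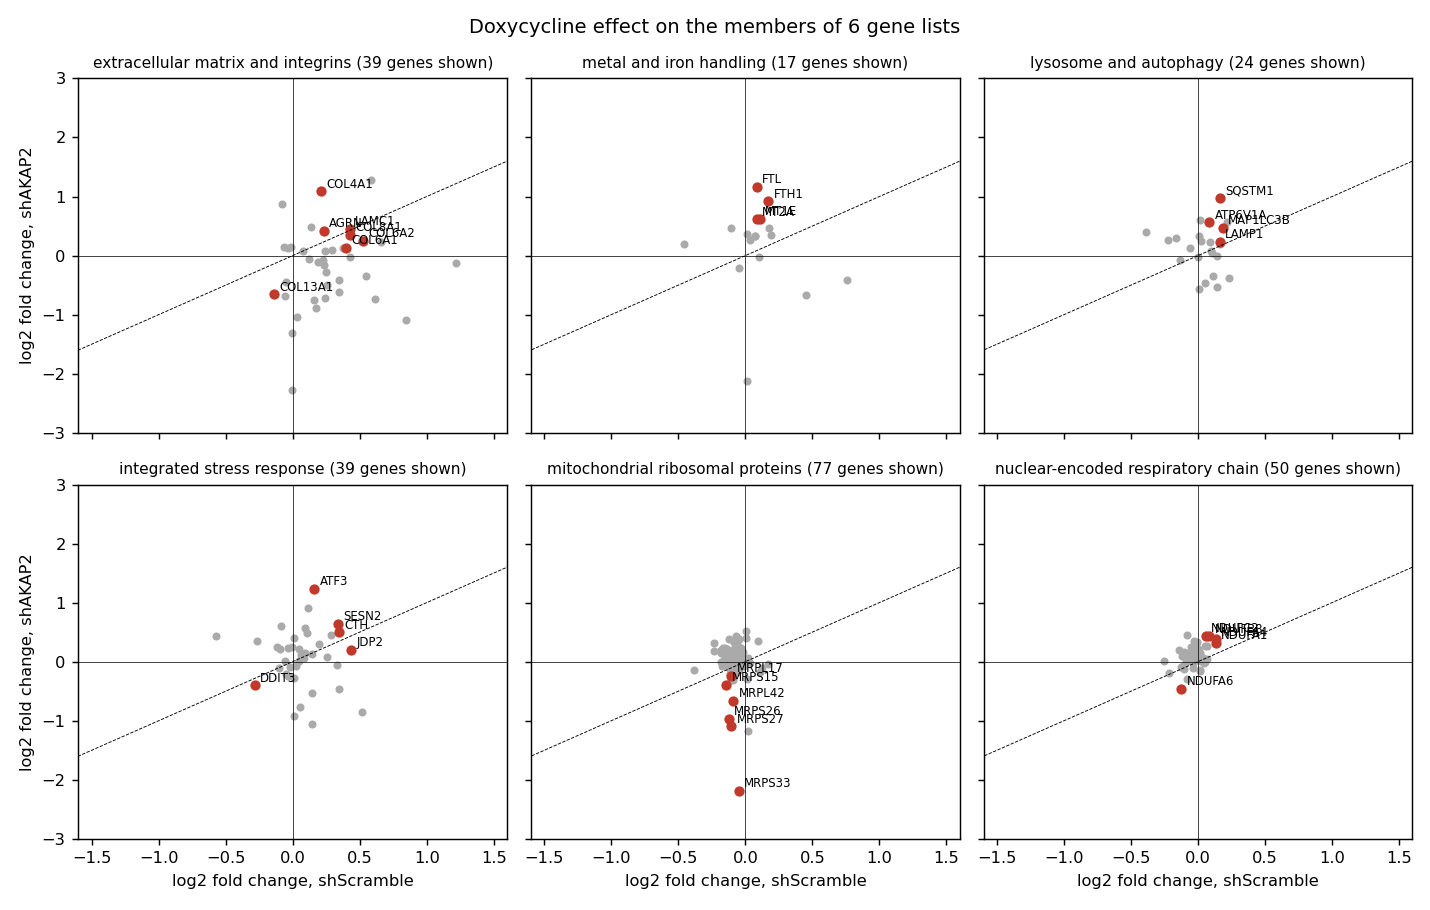
Log2 fold change with doxycycline in shScramble (horizontal) against shAKAP2 (vertical) for tested members of 6 gene lists, with a dashed line of equal change; red points belong to the common response. LAMC1 and COL8A1 lie near the dashed line, whereas the ferritins, SQSTM1, ATF3 and MRPS33 lie near the shAKAP2 axis.

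The 3' UTR letters GAACACA, known from earlier results of these data to be frequent among genes that fall in shAKAP2, were counted on the transcript strand. Of 12819 tested genes with an annotated 3' UTR, 13.8% held the word. It was present in 35.4% of the common genes that fell (169 of 478) and in 6.84% of those that rose (32 of 468). Genes that fell in shAKAP2 outside the common response held it in 31.6% (545 of 1725), and the difference between these shares was not tested. Where the lines differed in effect the share among falling genes was 44.1% (124 of 281), and otherwise 22.8% (45 of 197). Among the genes that fell in each line 5 of 22 held it, and among those that rose 0 of 19. Of the genes that fell in shScramble on its own test 14.3% held it, near the share of all genes. No match to the hairpins themselves was examined. The word stands in capitals in the following windows of 29 bases, from GENCODE release 29 on GRCh38, shown because they belong to the 5 genes that fell in each line and hold it.
MORF4L1: tgtatataactGAACACActcatccattt
SLITRK5: acacacacagtGAACACAtttgattaatt
EREG: aaaatatgtaaGAACACAttttaaatact
ALDH1B1: gactcaactcaGAACACAagcttggaaag
LSM14A: atcatgatattGAACACAgttccgaggca
SLITRK5 and EREG fell more in shAKAP2, whereas for MORF4L1, ALDH1B1 and LSM14A the difference between the lines was within 1 standard error. The windows lie at chr15:78897451-78897479, chr13:87678318-87678346, chr4:74386644-74386672, chr9:38397663-38397691 and chr19:34228996-34229024, in the order printed and all on the plus strand.

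**Figure D5:**
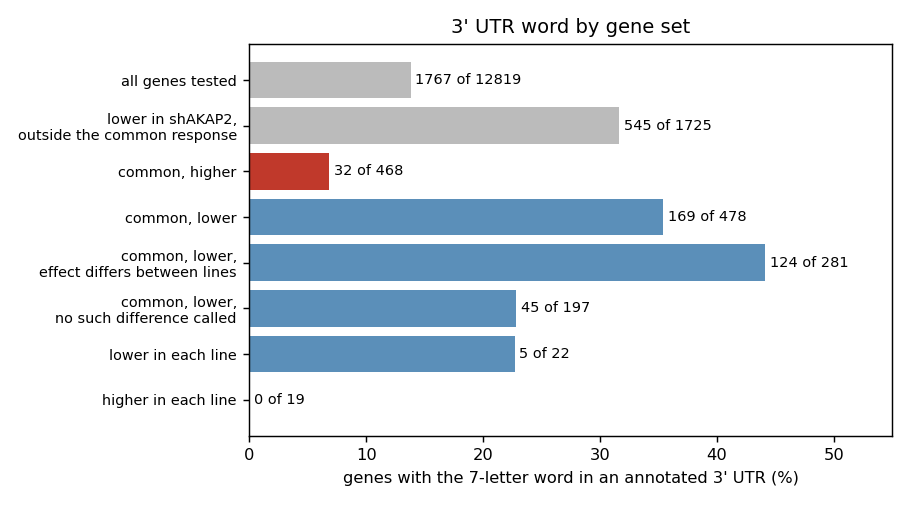
Share of genes with the 7-letter word in an annotated 3' UTR (horizontal, %, starting at 0), for all genes tested and genes that fell in shAKAP2 outside the common response (both grey) and for sets of the common response that fell (blue) or rose (red), with counts beside the bars. The share is 35.4% among common genes that fell and 6.84% among those that rose, against 31.6% of genes that fell in shAKAP2 outside the common response and 13.8% of all genes.

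Promoters were searched on both strands, from 250 bases before to 50 after each start in RefSeq (GRCh38.p14), for 3 words: TGACGTCA, the full cAMP response element bound by CREB and ATF proteins; TGATGCAA, an ATF4 and C/EBP composite site; and CACGTG, the E-box. TGACGTCA was found in 3.36% of common genes that rose and 4.15% of those that fell, against 3.73% of 11110 tested genes with a promoter in the table. A gene with several starts was counted once, if any of its promoters held the word. Of 20 genes with a promoter that fell in each line TGACGTCA was present in 3 (CREB3L2, PMEPA1 and AKIRIN1), and of 15 that rose in 0. TGATGCAA was found in 1.03% and 0.691% of common genes that rose and fell, against 0.702% of tested genes, and in 0 of the 35 genes with a promoter called in each line. CACGTG was found in 9.82% and 14.5%, against 12.3%, and in 2 of the 20 and 0 of the 15. The stretches around TGACGTCA, in capitals, are shown for those 3 genes.
PMEPA1: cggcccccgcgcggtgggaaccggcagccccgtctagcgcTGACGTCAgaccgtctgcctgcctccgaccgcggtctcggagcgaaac
CREB3L2: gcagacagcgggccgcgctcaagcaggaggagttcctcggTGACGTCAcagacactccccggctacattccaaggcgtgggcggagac
AKIRIN1: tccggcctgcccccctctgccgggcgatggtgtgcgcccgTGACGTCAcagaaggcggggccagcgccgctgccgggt
They lie at chr20:57709972-57710059 (minus), chr7:138002218-138002305 (minus) and chr1:38991198-38991275 (plus). A match describes these letters only, and binding was not measured.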

How the data were processed

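Per the labels' protocols, mRNA was enriched on oligo(dT) beads before NEBNext Ultra II library preparation. STAR 2.5.2b, featureCounts, Subread 1.5.2 and GRCh38 are named in the submitters' processing notes; annotation release and strand use were not given in the sources used here. Raw counts were deposited by the authors as whole reads per gene.

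Counts were fitted with edgeR 4.0.16 (R 4.3.3; limma 3.58.1 and DESeq2 1.42.0 for alternatives): filterByExpr, TMM scaling and a robust quasi-likelihood model of line plus doxycycline. Effects per line and their difference (interaction) came from a model with a mean per group. Genes were called at 0.05 after Benjamini-Hochberg adjustment across the 15566 tested. Standard errors (SE) derive from F, and levels are CPM on TMM-adjusted library sizes. The scripts were tested on simulated data. Of 24 genes taken by rule, 12 per direction, each was called, averaged at least 1 CPM, did not overlap between treatments in either line and ranked by the smaller line effect; up to 4 members per list with the smallest p were taken as well. Members, 21 pathway lists, 6 marker lists and words were chosen with earlier results of these data known. Some members are not reported here by name. Replicate numbers were not treated as pairs, since only some same-numbered libraries deviate together.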

Additional observations from a re-analysis of the deposited data

Results flagged for a closer look

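Sets of 4 libraries were checked for the 24 genes taken by rule and the mitochondrial share of counts, each in 4 groups. Among these 100 sets, 5 held a library far from the other 3, the number that chance gives at 1 in 20. In untreated shScramble, PDCD1LG2 was at 7.53 CPM in replicate 2 against 9.15 to 9.26 in the others, and RASSF5 at 11.8 CPM in replicate 1 against 14.5 to 14.8. In treated shScramble, IL7R was at 41.4 CPM in replicate 3 against 33.6 to 34.4, and STEAP1 at 12.01 CPM in replicate 1 against 13.6 to 13.9. In treated shAKAP2, MORF4L1P1 was at 13.2 CPM in replicate 3 against 9.55 to 9.90.

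For 4 named genes the doxycycline effect differed between the lines by the interaction test. The shAKAP2 effect minus the shScramble effect was -2.46 for SLITRK5, -0.74 for EREG, -0.40 for CREB3L2 and -1.40 for HES2, all on the log2 scale.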

How the results depend on the processing

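The 24 genes taken by rule kept their call over both lines together in all 24 alternatives, and none reversed. They were chosen for being called without overlap in these same libraries, which favours that outcome. In single lines, 47 of 1152 comparisons of these genes lost the call, 13 gained it and 0 reversed. Of 51 list genes named and called, 11 kept the call throughout and 40 lost it at least once. Counts are given as genes that rose and fell together, genes that rose and fell in each line, then genes of the common response with a called interaction; the reported ones are 485 and 524, 21 and 23, and 482. A mean per group with the effect averaged over lines gave 907 and 968. DESeq2 gave 807 and 813, and 41 rose in each line. With no filter on low counts, 314 had a called interaction. The replicate block within line gave 322 and 222 (270 and 192 of them shared with the reported sets), 71 and 49, and 246; same-numbered libraries of a line correlated above 0.1 in 5 of 8 pairs and best with their own number in 5 of 8. Without both shScramble replicate 1 libraries the counts were 1034 and 1027, 134 and 92, and 931, of which 463, 468, 21, 23 and 407 are shared with the reported sets. Leaving out 1 library gave 218 to 769 and 196 to 833, 10 to 57 and 17 to 42, and 163 to 661. The cause of these shifts was not tested. Genes of about 1 CPM, such as AKAP2 and treated SLITRK5, rest on few reads per library.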
